A study of Caenorhabditis elegans with 64 samples.

Results

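The F-box B and C genes of C. elegans were examined as a family. Members were all genes whose WormBase symbol begins with fbxb- or fbxc-, which gave 169 of the 31106 genes counted for small RNAs (113 fbxb and 56 fbxc genes) and 164 of the 45904 gene names of the mRNA tables. The genes fbxc-1, fbxc-2, fbxc-3, fbxc-10 and fbxc-11 were not found in the mRNA tables. The study followed small RNAs and mRNA in worms lacking SIMR-1, a germline Tudor domain protein. Whole day 1 adults of simr-1(cmp36) (strain USC863, a deletion made by CRISPR) and of wild-type (N2) were sampled after 1, 2, 7 and 10 generations at 25°C and at 20°C, with 2 small RNA and 3 mRNA libraries per group. Small RNAs of 13 mutant strains and wild-type were also sequenced at 20°C from 1 library each. These strains were rde-8(tm2252), Y57G11C.3(cmp47), C33G3.6(cmp44), simr-1(cmp36); hpo-40(cmp46), simr-1(cmp36), wago-1(tm1414), hpo-40(cmp46), math-33(ok2974), nyn-2(tm4844); nyn-1(tm5004), mut-16(pk710), hgo-1(tm4989), F37C4.5(ok3454) and rsd-2(pk3307). Nothing in the sources used here says whether replicates of a group were separate cultures, so p-values measure the spread between these samples, which may be technical.

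F-box proteins are the substrate receptors of SCF ubiquitin ligases. The F-box binds a Skp1-related adaptor, called SKR in C. elegans, which joins it to a cullin, and the remainder of the protein binds the target to be ubiquitinated. Nematodes carry very large F-box families, and for most fbxb and fbxc genes no individual role is described. In the germline, a class of small RNAs antisense to mRNAs is made by RNA-dependent RNA polymerases in Mutator foci, which MUT-16 scaffolds. This class is bound by worm-specific Argonautes (WAGO proteins) that silence the matching genes. A further class, named for the Argonaute CSR-1, mostly does not silence its targets. The classes were not separated in the counts used here.

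Sequence similarity decides how well small RNAs can be assigned to 1 member, so the first coding bases of the members the results turn on are shown with their coordinates in WBcel235, from the RefSeq genome. The coding start of fbxb-97 (chrII:1848003-1848154, minus strand), whose mRNA differed most between genotypes, held no window of 22 bases that occurs elsewhere in the genome. In fbxb-7 (chrV:17377443-17377525, plus strand) capitals mark the bases of such shared windows. The neighbours fbxb-22 (chrIII:11883457-11883539, minus strand) and fbxb-24 (chrIII:11908968-11909050, plus strand) differ at 1 of the 83 bases shown, which is in capitals. The first 68 bases of fbxc-43 (chrII:4235915-4235982, minus strand) and fbxc-44 (chrII:4237670-4237737, minus strand) are identical.
fbxb-97: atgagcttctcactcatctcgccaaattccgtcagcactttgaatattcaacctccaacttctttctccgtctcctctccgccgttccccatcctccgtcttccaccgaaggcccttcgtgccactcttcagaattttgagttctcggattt
fbxb-7: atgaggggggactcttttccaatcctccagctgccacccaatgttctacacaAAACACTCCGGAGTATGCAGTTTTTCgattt
fbxb-22: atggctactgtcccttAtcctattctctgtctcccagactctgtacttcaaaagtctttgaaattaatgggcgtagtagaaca
fbxb-24: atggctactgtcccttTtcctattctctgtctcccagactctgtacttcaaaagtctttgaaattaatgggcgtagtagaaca
fbxc-43: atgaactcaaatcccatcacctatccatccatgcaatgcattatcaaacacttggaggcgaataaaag
fbxc-44: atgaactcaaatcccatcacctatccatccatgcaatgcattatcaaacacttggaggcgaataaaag

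Several fbxc genes on chromosome IV are copies of each other. The coding sequences of fbxc-1 and fbxc-5 (1128 bases) are identical, as are those of fbxc-2, fbxc-3 and fbxc-4 and those of fbxc-8, fbxc-9, fbxc-10 and fbxc-11 (1413 bases). The second group and fbxc-5 differ at 2 of 1128 bases, T782A and A902T, with positions counted from 1 at the first coding base and the base of fbxc-4 given first. The stretches around both positions (fbxc-4 at chrIV:900507-900551 and chrIV:900627-900671, fbxc-5 at chrIV:904660-904704 and chrIV:904780-904824, all on the plus strand) show in capitals the bases at which their coding sequences differ, and sequence outside the coding bases was not compared.
fbxc-4, coding bases 760 to 804: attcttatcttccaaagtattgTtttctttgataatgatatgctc
fbxc-5, coding bases 760 to 804: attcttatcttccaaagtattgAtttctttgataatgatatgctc
fbxc-4, coding bases 880 to 924: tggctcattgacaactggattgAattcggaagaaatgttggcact
fbxc-5, coding bases 880 to 924: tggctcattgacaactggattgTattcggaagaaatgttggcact
Values of these copies are therefore uncertain for the single gene. The mRNA values of fbxc-4, fbxc-5, fbxc-8 and fbxc-9 may include reads of the copies not found in the mRNA tables. Elsewhere, 91.8% of the 22-base windows of fbxb-97, 86.6% of fbxb-7, 69.1% of fbxb-24, 62.3% of fbxb-22, 81.8% of fbxc-43 and 83.1% of fbxc-44 occurred once in the genome.

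Most members lie together. Of the 169, 103 are on chromosome II, 100 of them in its first 4.3 Mb, with 24 on IV, 17 on V, 11 on I, 9 on III and 5 on X. The annotation calls 152 protein-coding and 17 pseudogenes. Exons of 5 members overlap those of another gene, and small RNA reads were counted without strand, so fbxb-14 (with W08F4.12), fbxb-28 and fbxc-42 (with each other), fbxb-35 and fbxc-47 may carry reads of their partners.

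Small RNA levels are given as reads per 1000000 genome-mapped reads (RPM) and mRNA levels as normalised counts per 1000000 (CPM). In wild-type at 20°C, 39 members had at least 10 RPM, 6 had at least 100 RPM and 79 had under 1 RPM. The 100 members in the first 4.3 Mb of chromosome II, 22 of them with at least 10 RPM, held 72.3% of the family's summed small RNA level. Per kb of exon, small RNAs were most abundant on fbxc-43 (1027 RPM per kb), fbxb-14 (925 RPM per kb), fbxb-97 (589 RPM per kb), fbxb-85 (276 RPM per kb) and fbxb-100 (191 RPM per kb). On the same per-kb scale, the mRNA of the family was led by other members, namely fbxc-44 (61.3 CPM per kb), fbxc-50 (44.9 CPM per kb), fbxc-45 (29.8 CPM per kb), fbxc-47 (21.9 CPM per kb) and fbxc-32 (18.9 CPM per kb). In the mRNA libraries of wild-type at 20°C 142 members had under 1 CPM of mRNA and 7 had at least 10 CPM.

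The libraries held between 2392511 and 50329478 small RNA counts and between 8055126 and 38633453 mRNA counts. The simr-1 mRNA itself lay between 6.23 and 29.1 CPM in all simr-1 libraries and between 45.3 and 230 CPM in all wild-type libraries. Within simr-1 it was higher late, at 7.32 to 8.16 CPM at 20°C, 18.9 to 21.4 CPM in generation 7 and 27.8 to 29.1 CPM in generation 10. Wild-type stood at 181 to 230, 153 to 169 and 108 to 122 CPM in these conditions. The source of the late simr-1 reads was not tested. Wild-type generations 1 and 2 stood apart. Reads on genes were 41.1% to 43.5% of mapped small RNA reads there and 45.3% to 50.8% in simr-1 generation 2, against 58.7% to 69.4% in the other replicated groups. The summed mRNA of 10 oocyte markers lay at 3381 to 4196 CPM in simr-1 generation 2, at 2242 to 3752 CPM in wild-type generations 1 and 2 and at 8124 to 10826 CPM elsewhere, with no marker under 1 CPM in any group. Of 8 germline, 7 intestine, 5 body muscle and 6 neuron markers none was under 1 CPM either. The genotype comparisons at 20°C and at generations 7 and 10 use none of these groups.

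Loss of SIMR-1 lowered small RNAs of the family at 20°C. The members' summed level was 2468 RPM in simr-1 and 4186 RPM in wild-type (means of 2 libraries each), and 25 members in simr-1 against 39 in wild-type reached 10 RPM. A member was called when the quasi-likelihood test of edgeR gave an adjusted p (Benjamini-Hochberg) no higher than 0.05, the difference was at least 2-fold and the mean of either group reached 10 RPM. Of the 118 members tested, 27 (22.9%) were called lower, where 5.64% of all genes tested were, and 0 were called higher, where 1.62% of all genes were. In the higher direction DESeq2 also called 0, and 2 members had an unadjusted p under 0.05. The members called lower were 18 of 79 tested fbxb genes and 9 of 39 tested fbxc genes. The median log2 difference of the tested members was -1.91, and that of all genes was -0.01.

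fbxb-97 had 132 and 145 RPM in simr-1 and 660 and 650 RPM in wild-type at 20°C, a log2 difference of -2.33 ± 0.04 (SE, adjusted p = 1.5e-15). fbxb-7 had 15.2 and 14.7 RPM in simr-1 and 81.8 and 78.4 RPM in wild-type (-2.50 ± 0.08, adjusted p = 7.6e-13). In neither gene did the groups overlap, and the distance between genotypes was many times that between replicates. fbxb-24 had 31.3 and 32.4 RPM in simr-1 and 121 and 113 RPM in wild-type (-1.96 ± 0.06, adjusted p = 4.6e-13). Its neighbour fbxb-22 had 11.3 and 11.1 RPM in simr-1 and 36.0 and 34.5 RPM in wild-type (-1.74 ± 0.12, adjusted p = 8.9e-09). Beyond their similar coding starts, fbxb-22 shared 19.7% of its coding 22-base windows with fbxb-24. fbxc-23, with 7.19 and 7.42 RPM in simr-1 and 45.8 and 42 RPM in wild-type, was lower by a larger factor (-2.67 ± 0.12, adjusted p = 7.3e-11). The largest falls among the genes named here were those of fbxb-95, at 2.99 and 2.73 RPM in simr-1 and 23.5 and 25.0 RPM in wild-type (-3.16 ± 0.16), and fbxb-93, at 2.92 and 2.95 RPM in simr-1 and 17.8 and 17.9 RPM in wild-type (-2.68 ± 0.15).

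The most abundant small RNA targets did not all follow. fbxb-14, which had the highest RPM of all members in each 25°C group except wild-type generation 1, had 741 and 731 RPM in simr-1 and 697 and 694 RPM in wild-type at 20°C, and at generation 10 it had 668 and 647 RPM in simr-1 and 433 and 452 RPM in wild-type. It was not called in any condition. Its exons overlap W08F4.12, so these reads may in part be those of that gene. fbxc-43 had 717 and 694 RPM in simr-1 and 886 and 832 RPM in wild-type at 20°C and was not called there. fbxc-44, which shares its coding start with fbxc-43, had 81.9 and 78.7 RPM in simr-1 and 90.7 and 89.3 RPM in wild-type.

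At 25°C the same direction was seen in each generation. In generation 1, 17 of 79 tested members (21.5%) were called lower, where 9.18% of all genes were, and 2 were called higher, where 17.5% of all genes were. In generation 2, 21 of 100 (21%) were called lower, where 8.12% of all genes were, and 0 were called higher, where 1.79% were. In generation 7, 15 of 85 (17.6%) were called lower, where 8.06% were, and 0 were called higher, where 0.912% were. In generation 10, 11 of 62 (17.7%) were called lower, where 12.4% were, and 1 was called higher, where 1.24% were. In the higher direction at generations 2 and 7 DESeq2 also called 0, and 2 and 5 members had an unadjusted p under 0.05. The share of members called lower was thus above that of all genes in each condition, least so at generation 10. Median log2 differences of the members were -2.38, -1.5, -1.71 and -1.13 in generations 1, 2, 7 and 10, beside -0.10, -0.05, 0.02 and -0.08 for all genes. Over the 5 conditions 33 members were called lower at least once, and fbxb-7, fbxb-22, fbxb-24, fbxb-46, fbxb-100, fbxc-39 and fbxc-42 were called lower in all 5. No such total over all genes is given here, so these pooled counts do not set the family apart. In generation 1 small RNAs of all 8 germline markers and 9 of 10 oocyte markers were called higher in simr-1, and their part in the family's values was not tested.

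**Figure D1:**
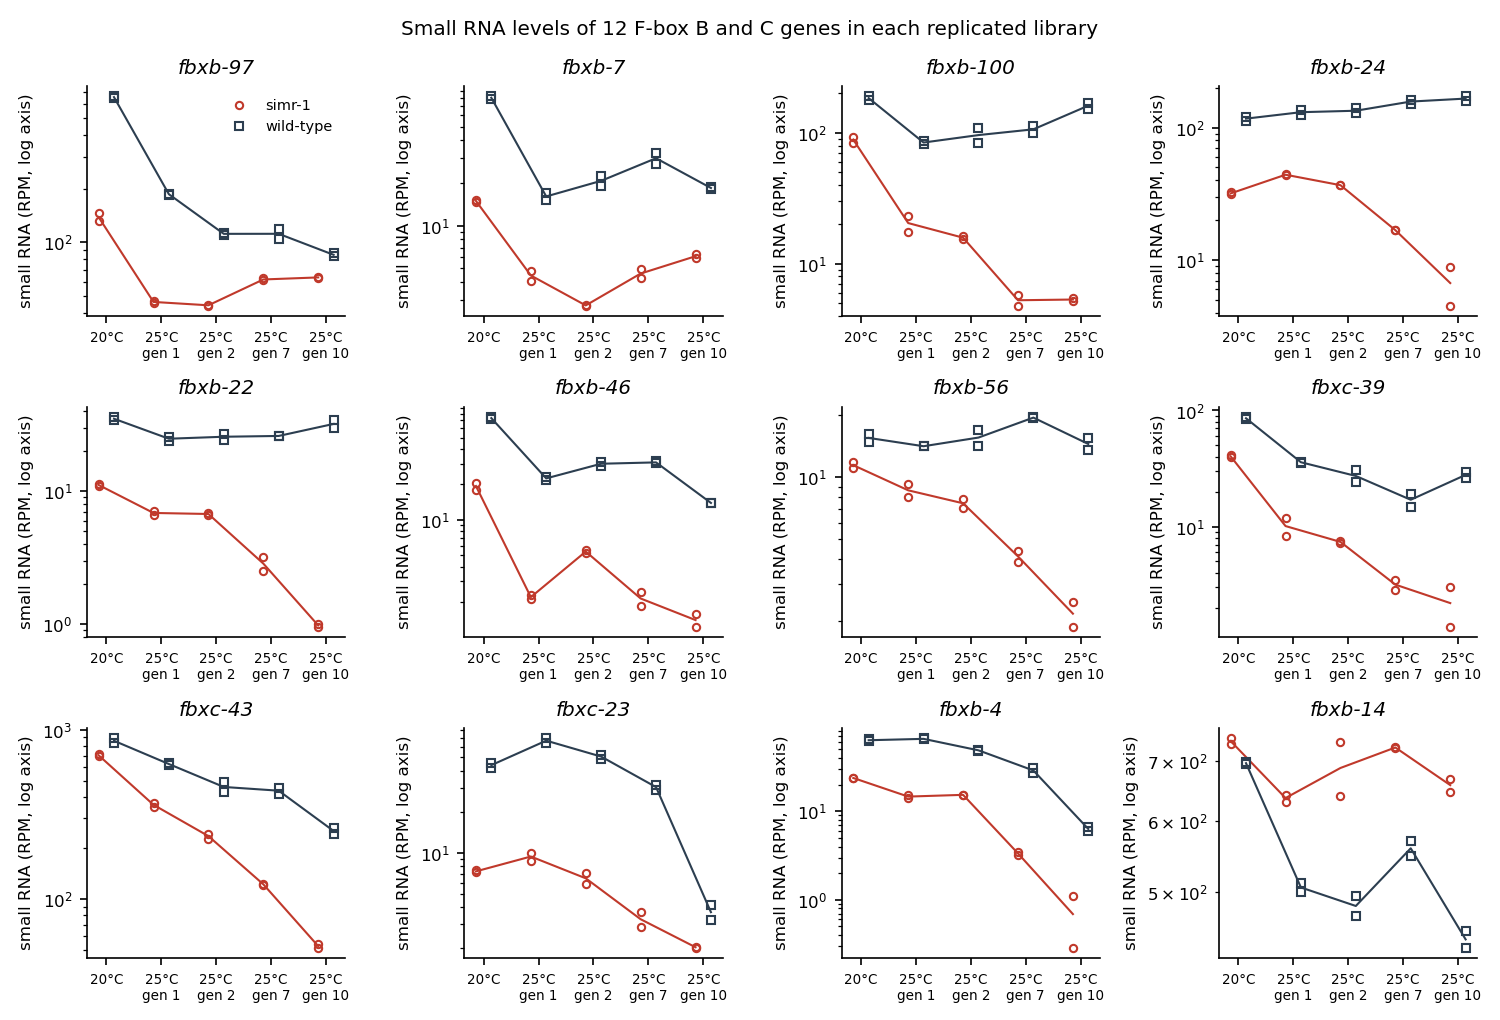
Small RNA level (RPM, log axis) of 12 F-box B and C genes at 20°C and in generations 1, 2, 7 and 10 at 25°C. Red circles are the 2 simr-1 libraries of each condition, squares are the 2 wild-type libraries, and lines join the means. fbxb-24 and fbxb-100 separate further between genotypes by generation 10, fbxb-97 comes closer together, and fbxb-14 shows simr-1 at or above wild-type.

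The size of the difference changed with generations at 25°C and did so differently among members. fbxb-100 had 84.0 and 93.6 RPM in simr-1 and 190 and 179 RPM in wild-type at 20°C (-1.14 ± 0.05, adjusted p = 8.8e-11). In simr-1 at 25°C it had 23.4 and 17.5 RPM in generation 1, 16.2 and 15.4 RPM in generation 2, 5.75 and 4.76 RPM in generation 7 and 5.19 and 5.45 RPM in generation 10. In wild-type it had 86.8 and 81.9 RPM, 109 and 83.7 RPM, 113 and 99.6 RPM, and 152 and 171 RPM in the same generations. The genotypes were therefore furthest apart at the end of the series, with a log2 difference of -4.41 ± 0.09 in generation 7 (adjusted p = 1.6e-15) and -4.98 ± 0.10 in generation 10 (adjusted p = 6.4e-11). Within simr-1, fbxb-100 fell by 1.72 ± 0.18 on the log2 scale between generation 10 and generation 1 (adjusted p = 9.4e-06). Within wild-type the edgeR fit gave a rise of 0.27 ± 0.07 (adjusted p = 0.0096), smaller than the RPM show. RPM is counted per mapped read, and fewer of these fell on genes in wild-type generation 1.

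In the distance between genotypes fbxb-24 followed the same course. It had 44.3 and 43.8 RPM in simr-1 generation 1 and 4.51 and 8.90 RPM in simr-1 generation 10, while wild-type had 136 and 125 RPM in generation 1 and 159 and 172 RPM in generation 10. These wild-type RPM rise, but the edgeR fit put wild-type fbxb-24 slightly lower in generation 10 (-0.32 ± 0.07, adjusted p = 0.0027). The log2 difference between genotypes was -2.04 ± 0.07 in generation 1 (adjusted p = 4.4e-10), -3.31 ± 0.06 in generation 7 (adjusted p = 3e-16) and -4.69 ± 0.17 in generation 10 (adjusted p = 2e-09). The neighbour fbxb-22 reached 0.957 and 1.00 RPM in simr-1 and 34.5 and 29.9 RPM in wild-type in generation 10 (-5.08 ± 0.23, adjusted p = 1.3e-08). fbxc-43, not called at 20°C, stood at 51.4 and 53.8 RPM in simr-1 and 243 and 261 RPM in wild-type in generation 10 (-2.32 ± 0.08, adjusted p = 1.1e-09). fbxb-56 had 11.8 and 11.1 RPM in simr-1 and 16.2 and 14.8 RPM in wild-type at 20°C, not called, and 3.85 and 4.37 RPM in simr-1 and 19.5 and 19.5 RPM in wild-type in generation 7 (-2.34 ± 0.14, adjusted p = 8e-10). These members had in common that the genotypes did not overlap at any time at 25°C. Between generations 1 and 10 wild-type kept most of its level in them, fbxc-43 excepted. From 20°C to generation 1 the wild-type level of fbxb-100 had already fallen.

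Other members lost small RNAs in wild-type too between generations 1 and 10. For fbxb-97 and fbxc-23 the genotypes came closer, and for fbxb-4 they did not. fbxb-97 had 46.6 and 45.7 RPM in simr-1 and 188 and 185 RPM in wild-type in generation 1 (-2.49 ± 0.06, adjusted p = 5.1e-11). In generation 10 it had 64.1 and 62.7 RPM in simr-1 and 83.3 and 86.6 RPM in wild-type, which no longer met the call although the groups did not overlap. fbxb-4, a pseudogene, had 14.2 and 15.1 RPM in simr-1 and 66.4 and 65.1 RPM in wild-type in generation 1, and 1.09 and 0.287 RPM in simr-1 and 5.97 and 6.67 RPM in wild-type in generation 10. Its log2 difference was -2.62 ± 0.08 in generation 1 (adjusted p = 3.6e-10) and -3.21 ± 0.39 in generation 10. fbxc-23 had 10.0 and 8.75 RPM in simr-1 and 68.9 and 63.9 RPM in wild-type in generation 1 (-3.32 ± 0.09, adjusted p = 1.4e-10), against 2.05 and 2.01 RPM in simr-1 and 4.12 and 3.21 RPM in wild-type in generation 10. For fbxb-4 and fbxc-23 the later wild-type level was itself under 10 RPM, the minimum for a call.

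The members called higher for small RNA were fbxc-50 and fbxc-32. In generation 1 fbxc-50 had 72.8 and 63.4 RPM in simr-1 and 11 and 14.9 RPM in wild-type (1.90 ± 0.13, adjusted p = 1.4e-07). fbxc-32 had 18.0 and 16 RPM in simr-1 and 3.68 and 4.28 RPM in wild-type (1.59 ± 0.17, adjusted p = 5.3e-06). At 20°C fbxc-50 had 72.9 and 77.3 RPM in simr-1 and 54.4 and 50.8 RPM in wild-type, so that wild-type generation 1 and not simr-1 was the group that stood apart. In generation 10 fbxc-32 was called higher again, at 18.6 and 18.9 RPM in simr-1 and 8.25 and 8.77 RPM in wild-type (1.08 ± 0.14, adjusted p = 7.8e-05).

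The mRNA of the family was compared in the same 5 conditions. In bulk RNA from whole worms, fewer cells of a type and less RNA per cell cannot be told apart. At 20°C 3 of 83 tested members (3.61%) were called higher, where 1.9% of all genes were, and 0 were called lower, where 1.2% were, by the same p and fold limits with no minimum level. In the lower direction DESeq2 also called 0, and 2 members had an unadjusted p under 0.05. The 3 members were fbxb-97, fbxb-7 and fbxc-8. fbxb-97 mRNA stood at 22.4, 21.7 and 24.3 CPM in simr-1 and 2.21, 2.92 and 1.63 CPM in wild-type, 9.33-fold higher (log2 3.22 ± 0.14, adjusted p = 2.2e-08). fbxb-7 mRNA stood at 16.9, 16.5 and 17.3 CPM in simr-1 and 5.76, 6.30 and 5.70 CPM in wild-type, 2.79-fold higher (1.48 ± 0.10, adjusted p = 9e-07). In both genes all simr-1 libraries lay far above all wild-type libraries. fbxc-8, one of the identical copies, stood at 2.21, 2.13 and 1.65 CPM in simr-1 and 1.03, 0.675 and 0.407 CPM in wild-type (1.40 ± 0.31, adjusted p = 0.0072).

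fbxb-97 was called higher in all 5 conditions, the only member for which this held. In simr-1 its mRNA stood at 55.6, 52.5 and 57.2 CPM in generation 1, 30.5, 23.5 and 27.5 CPM in generation 2, 61.1, 60.9 and 61.4 CPM in generation 7 and 64.9, 62.3 and 58.6 CPM in generation 10. In wild-type it stood at 0.944, 0.637 and 0.717 CPM, 6.94, 5.12 and 4.86 CPM, 27.7, 29.2 and 25.1 CPM, and 29.8, 37.5 and 21.6 CPM in the same generations. The simr-1 level was already high in generation 1, while the wild-type level reached its highest values in generations 7 and 10. The log2 difference was therefore 6.18 ± 0.14 in generation 1 (72.7-fold, adjusted p = 3e-17), 2.30 ± 0.16 in generation 2 (adjusted p = 4.8e-06), 1.15 ± 0.07 in generation 7 (adjusted p = 1.2e-05) and 1.05 ± 0.12 in generation 10 (adjusted p = 4.3e-06). The last of these calls was lost without wild-type replicate 3 and with scaling to total counts. The part of the low wild-type level in the 72.7-fold difference of generation 1 was not tested apart.

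fbxb-7 mRNA stood at 23, 25.1 and 23 CPM in simr-1 and 3.88, 3.63 and 2.15 CPM in wild-type in generation 1 (2.91 ± 0.14, adjusted p = 6.6e-13). In generation 10 it stood at 30.7, 27.3 and 29.2 CPM in simr-1 and 16.6, 18.3 and 15.0 CPM in wild-type, under the 2-fold limit without overlap. fbxb-56 moved the other way along the generations. At 20°C its mRNA overlapped between groups, with 0.882, 1.15 and 0.198 CPM in simr-1 and 0.789, 0.337 and 0.407 CPM in wild-type. In generation 7 it stood at 4.3, 3.55 and 3.58 CPM in simr-1 and 0.177, 0.301 and 0.348 CPM in wild-type (13.5-fold, 3.75 ± 0.23, adjusted p = 1.6e-05), and in generation 10 at 4.35, 2.95 and 4.81 CPM in simr-1 and 0.790, 0.302 and 0.491 CPM in wild-type (2.96 ± 0.31, adjusted p = 9.8e-07). It was called higher in each of the 4 generations at 25°C. fbxb-14 mRNA, at 0.523, 0.602 and 0.511 CPM in simr-1 and 0.248, 0.246 and 0.126 CPM in wild-type in generation 7 (1.38 ± 0.33, adjusted p = 0.017), was called there and in generation 10. The calls were lost without simr-1 replicate 1 or 2 in generation 7, and without simr-1 replicate 1, wild-type replicate 1 or wild-type replicate 3 in generation 10.

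**Figure D2:**
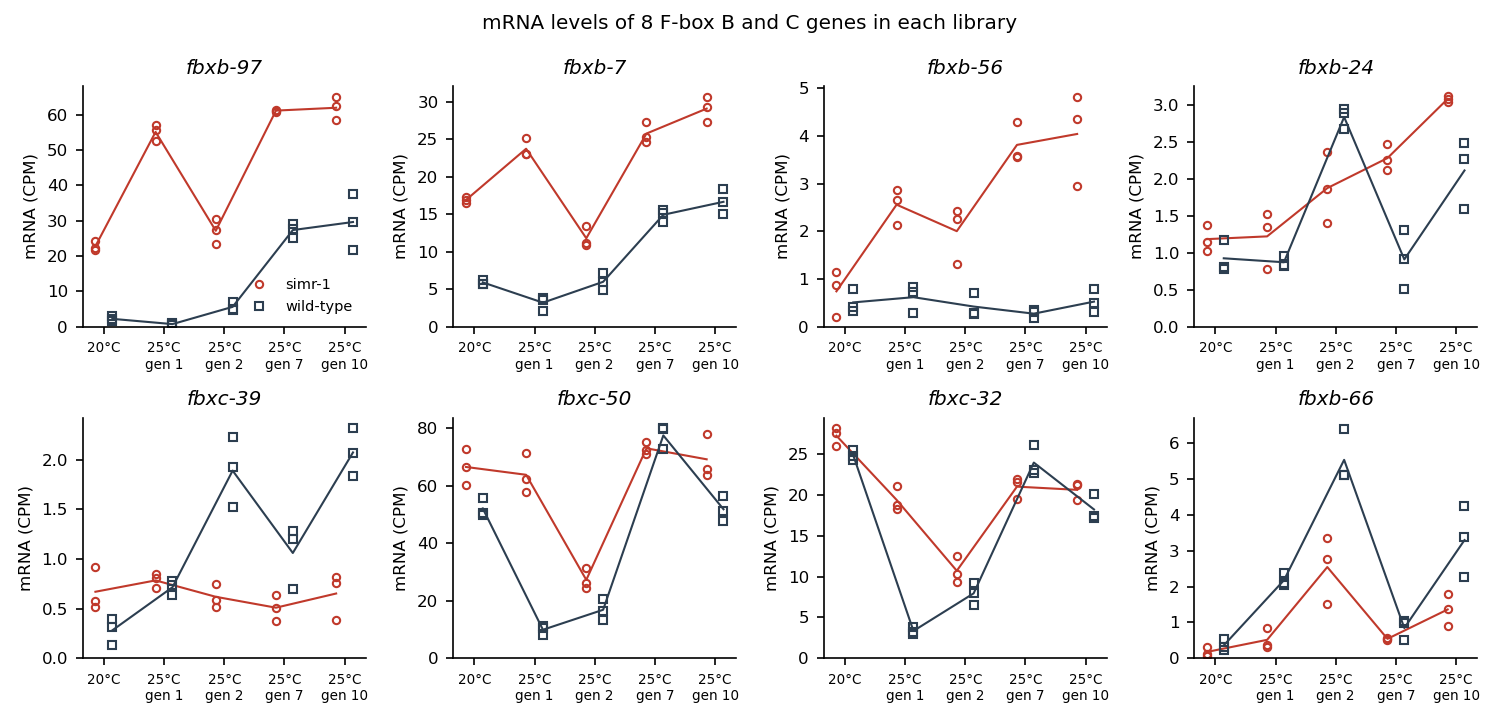
mRNA level (CPM, linear axis) of 8 F-box B and C genes at 20°C and in generations 1, 2, 7 and 10 at 25°C. Red circles are the 3 simr-1 libraries of each condition, squares are the 3 wild-type libraries, and lines join the means. fbxb-97 is higher in simr-1 throughout, fbxb-56 separates at 25°C, fbxc-50 and fbxc-32 dip in wild-type generation 1, and fbxb-66 is lower in simr-1 at 25°C.

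The rest of the family did not share this direction. In generation 1, 45 of 131 tested members (34.4%) were called lower in simr-1, where 21.7% of all genes were, and 10 were called higher, where 7.98% were. In generation 2, 49 of 153 (32%) were called lower, where 5.45% were, and 3 were called higher, where 12.2% were. In generation 7, 2 of 144 were called lower, where 1.5% were, and 8 were called higher, where 7.83% were. In generation 10, 28 of 146 (19.2%) were called lower, where 8.98% were, and 4 were called higher, where 2.24% were. Median log2 differences were 0.11 at 20°C and -0.99, -0.83, 0.04 and -0.66 in generations 1, 2, 7 and 10, beside 0.02, -0.15, -0.02, 0.00 and -0.07 for all genes. With DESeq2 the members called lower were 25 in generation 1 and 16 in generation 10. Single libraries mattered too. Without simr-1 generation 2 replicate 1, 30 members were called lower in generation 2. In generation 7, 1 was called lower without simr-1 replicate 2, simr-1 replicate 3, wild-type replicate 1 or wild-type replicate 2, and 5 and 4 were called higher without simr-1 replicates 1 and 2. In generation 10, 2 were called higher without wild-type replicate 3, and at 20°C 1 was called lower without simr-1 replicate 2. When simr-1 also had to differ from wild-type generation 1, the members called lower were 3 in generation 2, 1 in generation 7 and 5 in generation 10. In all, 82 members were called lower in at least 1 condition, 16 were called higher and 1 was called in both directions. These pooled mRNA counts also stand without a total over all genes and do not set the family apart.

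Of the members with lower mRNA in simr-1, 35 of 45 in generation 1 and 36 of 49 in generation 2 were fbxb genes, which made up 90 of the 131 and 107 of the 153 members tested. fbxb-66 stood at 0.845, 0.322 and 0.380 CPM in simr-1 and 2.05, 2.1 and 2.39 CPM in wild-type in generation 1 (-1.97 ± 0.32, adjusted p = 1.7e-05), and at 0.907, 1.81 and 1.37 CPM in simr-1 and 4.25, 3.38 and 2.27 CPM in wild-type in generation 10 (-1.28 ± 0.28, adjusted p = 0.0014). fbxc-20 stood at 0.620, 0.564 and 0.759 CPM in simr-1 and 3.30, 4.08 and 4.18 CPM in wild-type in generation 1 (-2.49 ± 0.25, adjusted p = 2.1e-08). fbxb-91 stood at 2.31, 2.91 and 3.6 CPM in simr-1 and 6.01, 5.90 and 5.35 CPM in wild-type in generation 2, and at 1.81, 1.52 and 1.83 CPM in simr-1 and 4.37, 3.98 and 3.62 CPM in wild-type in generation 10 (-1.21 ± 0.20, adjusted p = 0.00013). None of these sets of libraries overlapped. Together, fbxb mRNA summed to 54.9 to 71.3 CPM in simr-1 and 26.1 to 35.3 CPM in wild-type at 20°C, to 106 to 111 CPM in simr-1 and 48.7 to 53.5 CPM in wild-type in generation 1, and to 120 to 140 CPM in simr-1 and 154 to 187 CPM in wild-type in generation 2. It summed to 128 to 135 CPM in simr-1 and 67.3 to 85.6 CPM in wild-type in generation 7, and in generation 10 the groups overlapped, at 170 to 175 CPM in simr-1 and 133 to 189 CPM in wild-type. These sums rested largely on fbxb-97 and fbxb-7. Without them, a choice made after seeing the data, the other fbxb genes summed to 15.6 to 29.6 CPM in simr-1 and 18.1 to 28 CPM in wild-type at 20°C, and to 25.4 to 32.7 CPM in simr-1 and 45.9 to 48.7 CPM in wild-type in generation 1, which turned the direction there. They summed to 76.3 to 102 CPM in simr-1 and 145 to 176 CPM in wild-type in generation 2, to 41.9 to 46 CPM in simr-1 and 28.2 to 42.7 CPM in wild-type in generation 7, and to 79.7 to 84.2 CPM in simr-1 and 96.3 to 133 CPM in wild-type in generation 10. fbxc mRNA, carried by a few well expressed genes, summed to 241 to 363 CPM in simr-1 and 262 to 358 CPM in wild-type over all conditions.

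Cell type markers moved with genotype in generation 1. The 8 germline markers summed to 3750 to 3910 CPM in simr-1 and 2207 to 2352 CPM in wild-type in generation 1, and the 5 body muscle markers to 1136 to 1377 CPM in simr-1 and 2154 to 2710 CPM in wild-type. In generation 2 germline markers summed to 1372 to 1616 CPM in simr-1 and 1358 to 1722 CPM in wild-type. In generation 10 the germline markers summed to 3407 to 3579 CPM in simr-1 and 2446 to 2701 CPM in wild-type. The 10 sperm markers summed to 31.8 to 36.0 CPM in simr-1 and 10.4 to 14.8 CPM in wild-type in generation 10, where 5 of them were under 1 CPM in simr-1 and 6 in wild-type. The part of these markers in the family's mRNA differences was not tested.

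Small RNA and mRNA were then read together, member by member. At 20°C 22 of the 27 members with lower small RNAs could be tested for mRNA, and fbxb-7 and fbxb-97 were called higher. In generation 1, 16 of 17 could be tested. fbxb-7, fbxb-56, fbxb-97, fbxb-100 and fbxc-42 were called higher and fbxc-23 was called lower. In generation 2 fbxb-7, fbxb-56 and fbxb-97 of 21 were called higher and fbxc-39 was called lower, the call of fbxb-7 being lost without simr-1 replicate 1 or wild-type replicate 3. In generation 7 fbxb-4, fbxb-22, fbxb-24 and fbxb-56 of 15 were called higher and fbxc-39 was called lower. In generation 10 fbxb-56 of 11 was called higher and fbxc-39 was called lower. The median mRNA difference of the members with lower small RNAs was 0.33, 0.34, -0.28, 0.56 and 0.22 on the log2 scale in these 5 conditions. Members with lower small RNAs and no mRNA call were 20 of 22 at 20°C and 10 of 16, 17 of 21, 10 of 15 and 9 of 11 in generations 1, 2, 7 and 10. Called higher were 2 of 22 at 20°C and 5 of 16, 3 of 21, 4 of 15 and 1 of 11 in the generations, where 1.9%, 7.98%, 12.2%, 7.83% and 2.24% of all genes were.

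**Figure D3:**
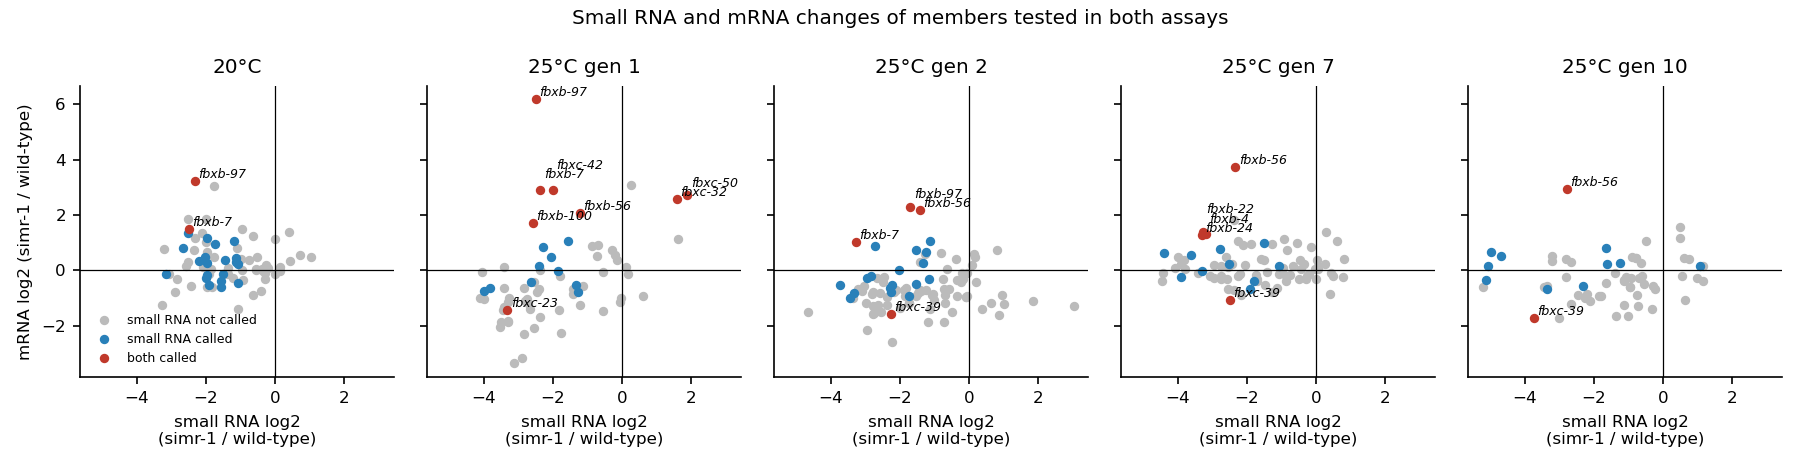
log2 difference of simr-1 over wild-type in small RNA (horizontal) and in mRNA (vertical) for each member tested in both assays, 1 panel per condition. Grey points were not called for small RNA, blue points were called for small RNA alone and red points for both. Points with lower small RNA spread over both sides of 0 in mRNA, with fbxb-97 highest in generation 1.

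The timing of these mRNA calls was read beside the small RNA course. fbxb-24 mRNA was called in generation 7, at 2.12, 2.47 and 2.27 CPM in simr-1 and 0.921, 1.31 and 0.506 CPM in wild-type (1.29 ± 0.27, adjusted p = 0.0096). In generation 10 it stood at 3.08, 3.04 and 3.13 CPM in simr-1 and 2.49, 2.27 and 1.60 CPM in wild-type and was not called, although its small RNA difference was then larger. fbxb-22 (1.40 ± 0.36, adjusted p = 0.022) and fbxb-4 (1.33 ± 0.33, adjusted p = 0.018) were called in generation 7 from under 1 CPM. Both calls were lost when single libraries were left out, fbxb-22 without any 1 of the 3 simr-1 libraries and fbxb-4 without simr-1 replicate 2 or wild-type replicate 2. fbxb-100 mRNA stood at 0.958, 0.564 and 1.03 CPM in simr-1 and 0.420, 0.191 and 0.179 CPM in wild-type in generation 1 (1.72 ± 0.45, adjusted p = 0.002).

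fbxc-39 had both small RNA and mRNA called lower in generations 2, 7 and 10, as fbxc-23 had in generation 1. Its small RNAs were 1.37 and 3.01 RPM in simr-1 and 29.3 and 26.4 RPM in wild-type in generation 10 (-3.74 ± 0.24, adjusted p = 2.8e-07). Its mRNA stood at 0.816, 0.761 and 0.382 CPM in simr-1 and 2.07, 2.32 and 1.84 CPM in wild-type in generation 10 (-1.70 ± 0.31, adjusted p = 0.00029), and at 0.585, 0.754 and 0.521 CPM in simr-1 and 1.93, 2.23 and 1.52 CPM in wild-type in generation 2 (-1.56 ± 0.29, adjusted p = 0.0017). In generation 7 the mRNA call (-1.05 ± 0.31, adjusted p = 0.037) was lost with scaling to total counts and without any 1 of 5 libraries, wild-type replicate 3 being the exception. fbxc-50 and fbxc-32 were higher in both assays in generation 1, with fbxc-50 mRNA at 62.2, 57.9 and 71.2 CPM in simr-1 and 10.5, 11.3 and 8.01 CPM in wild-type (2.73 ± 0.11, adjusted p = 5.1e-14) and fbxc-32 mRNA at 18.3, 18.8 and 21.1 CPM in simr-1 and 3.88, 3.25 and 2.93 CPM in wild-type (2.57 ± 0.13, adjusted p = 7.6e-13).

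The effect of temperature was tested within each genotype, between generation 1 at 25°C and 20°C. These tests share libraries with the genotype comparisons, so their values are given side by side only. In wild-type the family's mRNA was higher at 25°C, with 72 of 125 tested members (57.6%) called higher, where 32.6% of all genes were, and 6 called lower, where 8.5% were. In simr-1 8 of 102 members were called higher, where 10.4% of all genes were, and 3 were called lower, where 3.32% were. Median log2 differences of the members were 1.60 in wild-type and 0.33 in simr-1, beside 0.28 and 0.02 for all genes. fbxb-66 had 2.05, 2.1 and 2.39 CPM in wild-type generation 1 and 0.316, 0.225 and 0.543 CPM in wild-type at 20°C (2.82 ± 0.35, adjusted p = 1.8e-06). fbxc-23 had 4.93, 4.97 and 4.36 CPM in wild-type generation 1 and 0.868, 0.506 and 0.814 CPM in wild-type at 20°C (2.86 ± 0.24, adjusted p = 2.2e-08). These higher levels in wild-type generation 1 did not overlap those at 20°C.

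The 6 members called lower in wild-type generation 1 were fbxb-59, fbxb-67, fbxb-97, fbxc-32, fbxc-42 and fbxc-50. fbxb-67 stood at 0.734, 0.700 and 0.179 CPM in generation 1 and 5.76, 5.51 and 5.43 CPM at 20°C (-3.25 ± 0.28, adjusted p = 2.8e-08), and fbxc-50 at 10.5, 11.3 and 8.01 CPM in generation 1 and 50.6, 55.7 and 50.0 CPM at 20°C (-2.31 ± 0.11, adjusted p = 2.1e-11). The mRNA of fbxb-12 and fbxb-114 was at 0 counts in all 3 wild-type libraries at 20°C. Against a floor of 3 counts over that group, fbxb-114 was at least 5.37-fold higher and fbxb-12 at least 4.21-fold higher in generation 1. In simr-1 the members called higher included fbxb-97 (1.29 ± 0.08, adjusted p = 3.3e-10) and fbxb-56 (1.85 ± 0.35, adjusted p = 0.00039), and those called lower were fbxb-59, fbxc-31 and fbxc-40. fbxc-7, called higher, had 0.620, 0.483 and 0.651 CPM in simr-1 generation 1 and 0, 0.082 and 0 CPM in simr-1 at 20°C. The count in simr-1 was 13 called higher without simr-1 20°C replicate 3, and 1 called lower without simr-1 20°C replicate 2 or simr-1 generation 1 replicate 1.

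Small RNAs of the family went the other way with temperature. In wild-type 14 of 111 members (12.6%) were called lower in generation 1 than at 20°C, where 6.71% of all genes were, and 3 were called higher, where 8.86% were. Fewer reads fell on genes in wild-type generation 1, and these counts differed with the scaling. Scaled to mapped reads, 26 members were called lower and 0 higher, and the median of all genes was -0.79 in place of 0.07. In simr-1 11 of 104 members (10.6%) were called lower, where 2.6% of all genes were, and 0 were called higher, where 1.92% were. In the higher direction in simr-1 DESeq2 also called 0, and 6 members had an unadjusted p under 0.05. fbxb-45 had 1.14 and 1.20 RPM in simr-1 generation 1 and 24.6 and 22.7 RPM in simr-1 at 20°C (-4.18 ± 0.16, adjusted p = 1.5e-09). fbxb-91 had 1.52 and 1.58 RPM in simr-1 generation 1 and 30.2 and 31.4 RPM in simr-1 at 20°C (-4.16 ± 0.14, adjusted p = 5.4e-10). Both genes were also called lower in wild-type, fbxb-45 at 9.67 and 9.01 RPM in generation 1 and 92.9 and 74.6 RPM at 20°C, and fbxb-91 at 7.67 and 7.53 RPM in generation 1 and 64.1 and 62.4 RPM at 20°C. The 3 higher members in wild-type were fbxb-24, fbxc-8 and fbxc-23, and none of the 3 was called with scaling to mapped reads.

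Along the generations, between generation 10 and generation 1, mRNA of the family was higher in both genotypes. In wild-type 74 of 146 members (50.7%) were called higher, where 16.6% of all genes were, and 7 were called lower, where 14.5% were. In simr-1 68 of 129 (52.7%) were called higher, where 12.2% were, and 0 were called lower, where 1.57% were. In the lower direction in simr-1 DESeq2 also called 0, and 3 members had an unadjusted p under 0.05. With DESeq2 the simr-1 count was 43 higher. Of the higher members, 56 in wild-type and 60 in simr-1 were fbxb genes, which made up 102 of the 146 and 89 of the 129 members tested. Median log2 differences were 1.13 in wild-type and 1.37 in simr-1, beside 0.04 and 0.03 for all genes. fbxb-97 led in wild-type (5.13 ± 0.24, adjusted p = 4e-11), followed by the pseudogene fbxc-37 (3.85 ± 0.51, adjusted p = 7.2e-06). Another pseudogene, fbxc-38, was at 0 counts in wild-type generation 1 and at least 7.96-fold higher in generation 10 against a floor of 3 counts over the group. In simr-1 fbxb-24 was among the higher members (1.33 ± 0.25, adjusted p = 0.0005), as was fbxb-95 (2.81 ± 0.45, adjusted p = 0.00011).

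Small RNAs over the same span were lower. In wild-type 12 of 83 members (14.5%) were called lower in generation 10 than in generation 1, where 5.47% of all genes were, and 0 were called higher, where 5.1% were. Scaled to mapped reads, 8 were called lower and 1 higher, and 1 was called higher without wild-type generation 1 replicate 2, with the mapped-read median of all genes at 0.63 in place of -0.03. In simr-1 6 of 57 members (10.5%) were called lower, where 2.87% were, and 0 were called higher, where 2.25% were. In the higher direction DESeq2 also called 0 in both genotypes, and 3 members in wild-type and 6 in simr-1 had an unadjusted p under 0.05. The largest falls in wild-type were fbxc-23 (-4.82 ± 0.12, adjusted p = 3.4e-10) and fbxb-4 (-4.04 ± 0.10, adjusted p = 2.5e-10), and fbxc-43 fell in both genotypes, by 1.98 ± 0.05 on the log2 scale in wild-type and by 2.60 ± 0.05 in simr-1. The simr-1 members were fbxb-4, fbxb-24, fbxb-100, fbxc-39, fbxc-43 and fbxc-44.

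**Figure D4:**
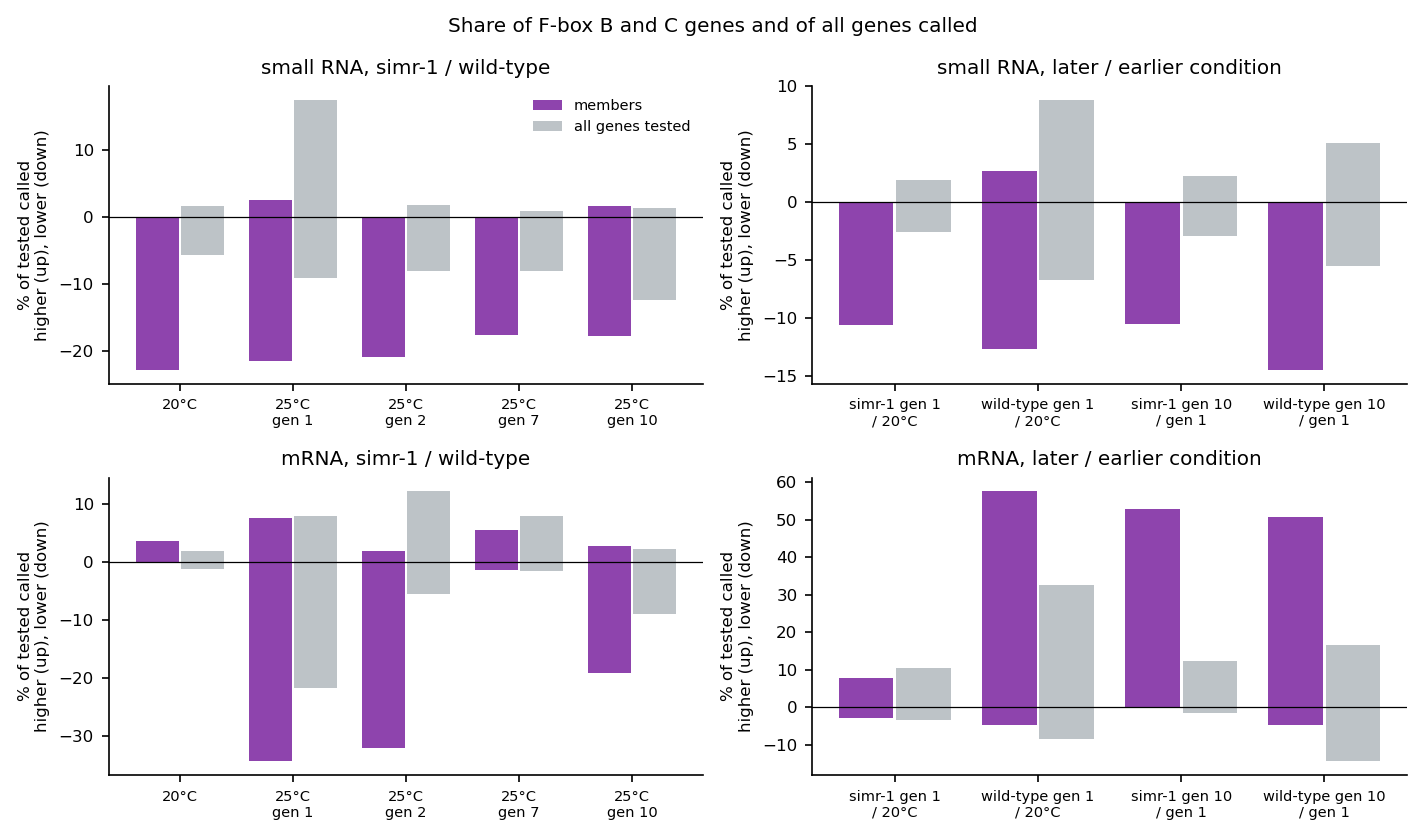
Percent of tested genes called higher (upward) and called lower (downward) in each comparison of small RNA and of mRNA. Purple bars are the F-box B and C members and grey bars are all genes tested. For mRNA higher in generation 10 than in generation 1 the members stand at 52.7% in simr-1 and 50.7% in wild-type, against 12.2% and 16.6% of all genes. For mRNA lower in simr-1 in generation 2 they stand at 32%, against 5.45%, and for small RNA lower in simr-1 at 20°C at 22.9%, against 5.64%.

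Whether the effect of simr-1 differed between generation 1 at 25°C and 20°C was tested directly with an interaction term. For small RNAs 12 of 135 members (8.89%) had a more negative effect at 25°C, where 6.81% of all genes did, and 2 had a more positive one, where 8.05% did. Scaled to mapped reads these counts were 7 and 3. For mRNA 19 of 144 members (13.2%) had a more negative effect at 25°C, where 16.4% of all genes did, and 7 had a more positive one, where 6.59% did. The share of members was close to that of all genes in most of these directions, so the interaction set the family apart little. The more negative mRNA count was 13 with the replicate number as a block, 11 with DESeq2 and 12 without simr-1 20°C replicate 2, simr-1 20°C replicate 3 or wild-type 20°C replicate 1. Single members with a difference were fbxb-97 mRNA (2.92 ± 0.26, adjusted p = 3.4e-09), fbxc-32 mRNA (2.40 ± 0.15, adjusted p = 5.3e-12), fbxb-100 small RNA (-1.56 ± 0.12, adjusted p = 2.6e-09) and fbxc-43 small RNA (-1.04 ± 0.06, adjusted p = 4.5e-11), the last of which was lost with scaling to mapped reads.

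The related fbxa genes and the partners of F-box proteins were counted in the same way. Of the fbxa genes, small RNAs were called lower in simr-1 for 26 of 154 at 20°C, 29 of 137 in generation 1, 25 of 155 in generation 2, 23 of 133 in generation 7 and 24 of 108 in generation 10, and higher for 7, 8, 5, 3 and 1. Of all genes, 5.64%, 9.18%, 8.12%, 8.06% and 12.4% were called lower in these 5 conditions. Called higher were 1.62%, 17.5%, 1.79%, 0.912% and 1.24% of all genes. Their mRNA was called lower for 8 of 142 at 20°C and for 72 of 177 in generation 1, and higher for 4 and 13. Of all genes, 1.2% and 21.7% were called lower there and 1.9% and 7.98% higher. In wild-type 113 of 172 fbxa genes were called higher in generation 1 than at 20°C, where 32.6% of all genes were. The SCF core list held 27 genes, the Skp1-related skr genes, the cullins and the RING subunits. Small RNAs of skr-10 were called lower in simr-1 at 20°C and those of skr-3 higher, of 24 tested. Of all genes, 5.64% were called lower there and 1.62% higher. Small RNAs of skr-21 were called lower in each generation at 25°C, where 9.18%, 8.12%, 8.06% and 12.4% of all genes were. In generation 1 mRNA of cul-6, skr-3, skr-4, skr-5, skr-19 and skr-20 was called lower in simr-1 and that of skr-15 higher. Of all genes, 21.7% were called lower there and 7.98% higher, so 6 lower calls from a list of 27 lie close to the share of all genes. In wild-type these 6 genes were among the 10 of 27 tested that were called higher in generation 1 than at 20°C, where 32.6% of all genes were. Both comparisons use the wild-type generation 1 libraries, so this overlap is partly built in and nothing is drawn from it. cul-6 and several skr genes are known to be induced by infection and proteotoxic stress in C. elegans. Of 7 other F-box genes, fog-2, lin-23 and prom-1 had small RNAs called higher in simr-1 in generation 1, where 17.5% of all genes were. Of these 7, mec-15 had mRNA called higher.

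Small RNAs of the family were also read in single libraries of other mutants at 20°C. With 1 library per strain there is no test and no replicate check, and values are ratios to the single wild-type library on the log2(RPM + 0.5) scale for members with at least 10 RPM in either library. The summed level was 776 RPM in mut-16, 1679 RPM in simr-1; hpo-40, 2087 RPM in simr-1, 2424 RPM in wago-1, 2584 RPM in nyn-1; nyn-2, 2852 RPM in math-33, 2976 RPM in rde-8, 3432 RPM in hpo-40, 3447 RPM in C33G3.6, 3948 RPM in Y57G11C.3, 4078 RPM in rsd-2, 4189 RPM in hgo-1 and 4535 RPM in F37C4.5, against 4180 RPM in wild-type. Strains lacking MUT-16, the endonuclease RDE-8, the related NYN-1 and NYN-2 or SIMR-1 therefore had the lowest family levels together with wago-1, which lacks an Argonaute, and math-33.

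In mut-16, 34 of 39 members were at least 2-fold lower (median -2.58), where 27% of all genes were. In nyn-1; nyn-2, 27 of 38 were at least 2-fold lower (median -1.75, all genes 20.9%), in rde-8 26 of 38 (median -1.35, all genes 18.2%), in simr-1 26 of 38 (median -1.31, all genes 12.5%) and in simr-1; hpo-40 26 of 38 (median -1.78, all genes 14.8%). HPO-40 is the paralog of SIMR-1. In hpo-40 alone 3 of 38 were at least 2-fold lower (median -0.27, all genes 2.1%), and 8 were against the mean of the replicated wild-type libraries. In wago-1, 11 of 39 were (median -0.59, all genes 11.1%). Of the remaining strains C33G3.6 had 2 of 38 (median -0.22, all genes 9.49%), and rsd-2 (all genes 2.2%), Y57G11C.3 (1.05%), hgo-1 (1.18%) and F37C4.5 (1.02%) had 0 of 39, 39, 40 and 40, with medians of -0.10, -0.08, 0.17 and 0.09. Against the replicated wild-type libraries C33G3.6 had 5 lower, rsd-2 and Y57G11C.3 had 4 each and F37C4.5 had 2. In math-33, a deubiquitinase mutant labelled as day 1 adults but listed as asynchronous in the study's notes, 21 of 38 were at least 2-fold lower, where 37.6% of all genes were, and 3 at least 2-fold higher, where 21.1% were, and the median of all genes was itself -0.74.

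**Figure D5:**
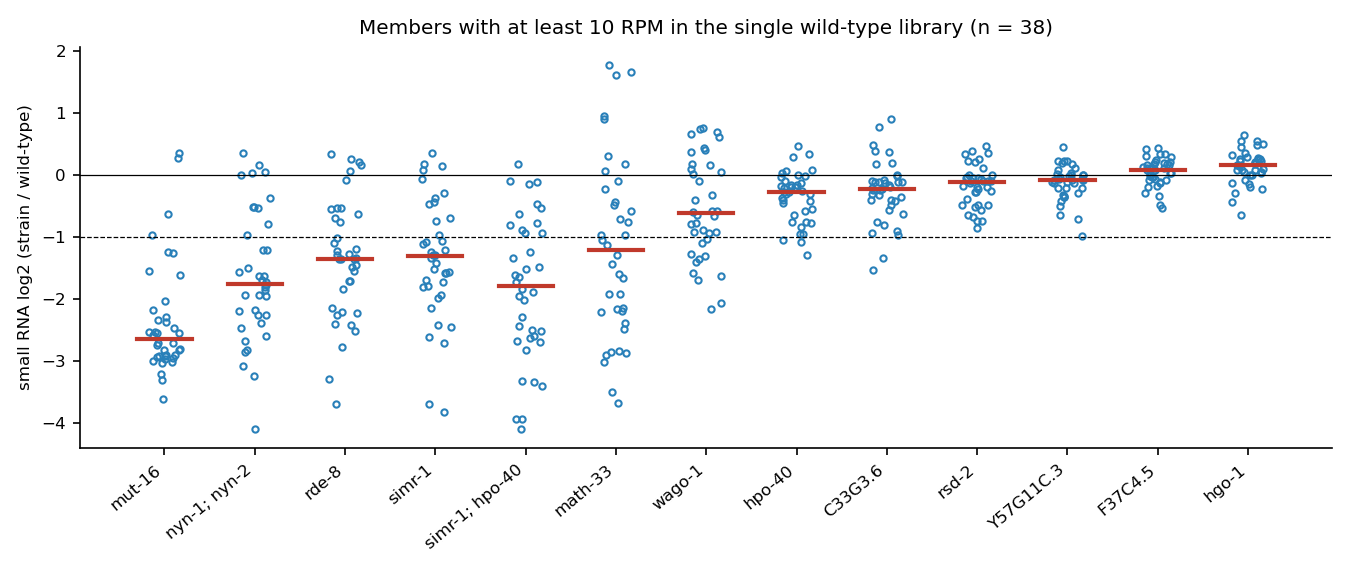
log2 ratio of small RNA level, log2((RPM + 0.5)/(wild-type RPM + 0.5)), in 13 mutant strains at 20°C for the 38 members with at least 10 RPM in the single wild-type library. Each point is 1 member, red bars are medians, and the dashed line marks 2-fold lower. The medians lie under this line in mut-16, simr-1; hpo-40, nyn-1; nyn-2, rde-8, simr-1 and math-33.

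Single members differed in which mutants had the lowest level. fbxb-97 had 61.2 RPM in simr-1; hpo-40, 107 RPM in mut-16, 182 RPM in nyn-1; nyn-2, 244 RPM in wago-1 and 255 RPM in rde-8, against 622 RPM in wild-type. fbxb-14, not called in the replicated simr-1 libraries, had 103 RPM in mut-16 and 276 RPM in wago-1 but 768 RPM in simr-1, against 729 RPM in wild-type. The pseudogene fbxb-4 had 2.45 RPM in nyn-1; nyn-2, 3.41 RPM in rde-8, 4.59 RPM in mut-16 and 16.5 RPM in simr-1, against 50.0 RPM in wild-type. In these 3 genes the order of the mutants was not the same, and reads of fbxb-14 may include those of W08F4.12. fbxc-43 had 112 RPM in mut-16, 263 RPM in simr-1; hpo-40 and 328 RPM in simr-1, against 876 RPM in wild-type, whereas the replicated simr-1 libraries at 20°C had 717 and 694 RPM against 886 and 832 RPM in wild-type. For this gene the single simr-1 library lay well under both replicated ones.

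Members with the most small RNAs left in mut-16 relative to wild-type were fbxb-67, with 13.8 RPM in mut-16 and 9.35 RPM in wild-type, fbxc-32, with 34.4 RPM in mut-16 and 26.9 RPM in wild-type, and fbxc-50, with 72.8 RPM in mut-16 and 59.9 RPM in wild-type. Those with the least were fbxb-93, with 0.459 RPM in mut-16 and 11.2 RPM in wild-type, fbxb-4 and fbxb-95, with 0.918 RPM in mut-16 and 12.6 RPM in wild-type. fbxb-67, fbxc-32 and fbxc-50 were also the members whose mRNA dropped in wild-type generation 1, together with fbxb-59, fbxb-97 and fbxc-42.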

How the data were processed

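The members, gene lists and comparisons were chosen with earlier results of these data known. The deposited values were expected counts per gene and sample. For small RNAs the authors trimmed reads, mapped them with Bowtie2 and counted them on WS258 genes with featureCounts 1.5.1, without strand and with fractions for equal overlaps. For mRNA the notes name HISAT2 and Salmon, and which of them gave the estimated counts is not given in the sources used here.

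Lines of the mRNA tables that repeated a gene name (1066 of 46970) were summed. Expected counts were rounded to whole numbers. A gene was tested in a fit when its libraries together held 10 counts or more, with edgeR 4.0.16 in R 4.3.3 (TMM, quasi-likelihood F test, Benjamini-Hochberg adjustment over all genes tested), per comparison. SE is the log2 difference divided by the square root of F. Calls needed an adjusted p of at most 0.05, a 2-fold difference and, for small RNA, a mean of 10 RPM in either group. DESeq2 1.42.0 was the alternative tool. RPM used the genome-mapped read totals that the study lists for each library. Tables and plots were made with Python 3.11.15, pandas 2.3.3, numpy 2.4.6 and matplotlib 3.10.9. The tests were checked on simulated data.

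Genes were named by a rule: up to 12 per assay called in the most genotype conditions, up to 3 per direction in each temperature or generation comparison, the 5 highest per kb in wild-type at 20°C in each assay, the 3 lowest and 3 highest in mut-16, and any called in both assays. Replicate numbers paired the mRNA libraries of generation 7, by the rule that each same-numbered pair correlates by over 0.1 (0.297, 0.481 and 0.577). The highest correlations with another number were 0.459, 0.345 and -0.384, so replicate 1 matched another number better than its own. Using the numbers as a block added 1 lower call there, fbxc-24, named after its value was seen. Alternatives were another tool, scaling, filters, a replicate block and leaving out each library.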

Additional observations from a re-analysis of the deposited data

Results flagged for a closer look

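For 21 named values the effect of simr-1 differed between generation 1 at 25°C and 20°C by the interaction term, on the log2 scale as the effect at 25°C minus the effect at 20°C. All of them use wild-type generation 1, which stood apart in reads on genes and in oocyte markers, and the part of that in the differences was not tested.

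For small RNA the effect was more negative at 25°C for fbxc-30 (-2.12), fbxb-46 (-1.96), fbxb-91 (-1.75), fbxb-45 (-1.66), fbxb-100 (-1.56), fbxc-39 (-1.33), fbxb-4 (-1.25), fbxc-8 (-1.07) and fbxc-43 (-1.04). It was more positive for fbxc-50 (1.34) and fbxc-32 (1.32). With scaling to mapped reads the calls of fbxb-4, fbxc-8, fbxc-30, fbxc-39 and fbxc-43 were lost.

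For mRNA the effect was more negative at 25°C for fbxb-44 (-3.20), fbxc-23 (-2.28), fbxc-8 (-1.49) and fbxc-40 (-1.01). It was more positive for fbxb-67 (3.02), fbxb-97 (2.92), fbxc-32 (2.40), fbxc-42 (2.39), fbxc-50 (2.36) and fbxb-7 (1.39). The call of fbxb-44 was lost with the replicate number as a block.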

How the results depend on the processing

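Counts of members are given as lower or higher. Shares of all genes under these alternative settings are not given here, so the counts do not set the family apart. Without the minimum of 10 RPM, small RNA calls in simr-1 against wild-type were 80 lower at 20°C and 55, 54, 48 and 28 lower in generations 1, 2, 7 and 10, with 1 higher in generation 2. Between generation 1 and 20°C they were 48 lower and 11 higher in wild-type and 51 lower and 1 higher in simr-1, and between generation 10 and generation 1 they were 33 lower in wild-type and 10 lower in simr-1. Scaled to mapped reads, 1 was higher in generation 2, 26 were lower and 0 higher between wild-type generation 1 and 20°C, 1 was higher between wild-type generation 10 and generation 1, and 7 were lower in the interaction. This scaling put the median of all genes at 0.37 in generation 1 and 0.32 in generation 2. Without the filter on low counts 1 was higher between wild-type generation 10 and generation 1, and 1 mRNA was lower at 20°C.

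For mRNA DESeq2 called 25 lower in generation 1, 16 lower in generation 10, 1 lower between simr-1 generation 1 and 20°C, 43 higher between simr-1 generation 10 and generation 1, and 11 lower in the interaction. Required also against wild-type generation 1, 3 were lower in generation 2, 1 lower and 3 higher in generation 7 and 5 lower in generation 10. Scaled to total counts, 1 was lower in generation 7.

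Leaving out 1 library gave for small RNA 26 to 27 lower at 20°C, 17 to 18 lower in generation 1, 18 to 21 in generation 2, 15 to 16 in generation 7 and 11 in generation 10, 12 to 14 lower and 2 to 3 higher between wild-type generation 1 and 20°C, 12 to 13 lower and 0 to 1 higher between wild-type generation 10 and generation 1, 5 to 7 lower between simr-1 generation 10 and generation 1, and 10 to 15 lower in the interaction. For mRNA it gave 0 to 1 lower and 3 to 4 higher at 20°C, 35 to 44 lower and 9 to 10 higher in generation 1, 30 to 52 lower and 2 to 4 higher in generation 2, 1 to 3 lower and 4 to 8 higher in generation 7, 21 to 39 lower and 2 to 4 higher in generation 10, 6 to 7 lower and 53 to 72 higher between wild-type generation 1 and 20°C, 1 to 3 lower and 6 to 13 higher between simr-1 generation 1 and 20°C, 6 to 8 lower and 63 to 78 higher between wild-type generation 10 and generation 1, 51 to 63 higher between simr-1 generation 10 and generation 1, and 12 to 23 lower and 6 to 8 higher in the interaction. The causes were not tested.

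With the replicate number as a block, mRNA counts were 3 lower and 8 higher in generation 7 and 13 lower in the interaction, and small RNA counts did not change. By the rule of a correlation over 0.1, the small RNA numbers paired the libraries of generation 2 only, with a correlation of 0.362. In the other conditions they did not, with correlations of 0.025, -0.041, 0.083 and -0.133. The crossed block in generation 10, chosen after seeing the data, gave 11 lower and 1 higher.

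In the single libraries, with no minimum, members at least 2-fold lower were 64 in rde-8, 4 in Y57G11C.3, 9 in C33G3.6, 72 in simr-1; hpo-40, 65 in simr-1, 19 in wago-1, 19 in hpo-40, 55 in math-33 (7 higher), 61 in nyn-1; nyn-2, 77 in mut-16, 2 in hgo-1, 2 in F37C4.5 and 3 in rsd-2. Against the replicated wild-type they were 4 in Y57G11C.3, 5 in C33G3.6, 8 in hpo-40, 2 in F37C4.5 and 4 in rsd-2. With a pseudocount of 0.05, 1 was lower in Y57G11C.3, and with scaling to reads on genes 5 were higher in math-33. Of the calls of named genes, DESeq2 left 295 the same and lost 28.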
